A study of Mus musculus with 20 samples.

Results

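The D cyclins, their kinases and the inhibitors that hold those kinases back were followed across tumors, ganglia and sphere cultures of MYCN-transgenic mice. The members were Ccnd1, Ccnd2, Ccnd3, Cdk4, Cdk6, Cdkn1a, Cdkn1b, Cdkn2a, Cdkn2c and Rb1, and every probe set annotated to 1 of these 10 symbols was taken. A probe set is the group of probes that reports 1 transcript or several related transcripts on the array. The members were 10 of the 18193 genes represented and had 27 of the 45037 probe sets, and 24 of the 27 passed the filter on low intensity. Tested probe sets were those brighter than 40% of the probe sets on an array for 2 or more arrays, which left out 1438805_at of Ccnd3, 1460291_at of Cdk6 and 1444400_at of Rb1. Each of the 10 genes kept at least 1 tested probe set.

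The study hybridised RNA of 20 samples, in 7 groups, to Affymetrix mouse expression arrays. The groups were 2 tumorsphere cultures of mice hemizygous for the MYCN transgene, 2 neurosphere cultures of wild-type mice, 4 tumors of hemizygous mice, 2 tumors of homozygous mice that also lacked Mdk, 4 tumors of homozygous mice, 2 ganglia of homozygous mice and 4 ganglia of wild-type mice. Wild-type groups are labelled with the 129+Ter/SvJcl background and every transgenic group with a mixed 129+Ter/SvJcl background, so genotype and background cannot be told apart. The labels call the tissue ganglion or tumor tissue, and the promoter of the transgene, the ages, the stage of the homozygous ganglia and any pooling of animals are not given in the sources used here. Mdk read 42.6 and 35.5 in the Mdk-KO tumors, against 268 to 297 in homozygous tumors, and where its probes lie relative to the deletion was not analysed here.

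A D cyclin binds CDK4 or CDK6, and the active pair phosphorylates the retinoblastoma protein, the product of Rb1. Phosphorylated retinoblastoma protein lets go of E2F transcription factors, which then switch on genes for DNA replication. The INK4 proteins, among them those of Cdkn2a and Cdkn2c, bind CDK4 and CDK6 and block them, while p21 (Cdkn1a) and p27 (Cdkn1b) bind a wider range of cyclin-kinase pairs. MYCN belongs to the MYC family, which binds DNA at E-boxes such as the letters CACGTG. MYCN amplification, CCND1 overexpression and CDK4 gain are known events in human neuroblastoma, which arises from sympathetic precursors.

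The Cdk4 and Cdk6 promoters are shown because these kinases moved in opposite directions in the tumors. RefSeq promoter windows of 250 bases before to 50 bases after a start were matched for 7 of the 10 genes, in 11 windows, and those of Ccnd1, Ccnd2 and Rb1 were not among them. The 250 bases before the start follow, 5′ to 3′ on the plus strand of GRCm38.p6, with each CACGTG in capitals. The Cdk4 sequence lies at chr10:127063285-127063534 and the Cdk6 sequence at chr5:3343643-3343892.
Cdk4: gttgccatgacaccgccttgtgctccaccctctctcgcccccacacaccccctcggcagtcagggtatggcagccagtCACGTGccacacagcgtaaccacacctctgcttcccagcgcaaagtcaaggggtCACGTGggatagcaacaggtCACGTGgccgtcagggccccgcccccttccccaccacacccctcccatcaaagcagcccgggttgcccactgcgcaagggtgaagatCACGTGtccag
Cdk6: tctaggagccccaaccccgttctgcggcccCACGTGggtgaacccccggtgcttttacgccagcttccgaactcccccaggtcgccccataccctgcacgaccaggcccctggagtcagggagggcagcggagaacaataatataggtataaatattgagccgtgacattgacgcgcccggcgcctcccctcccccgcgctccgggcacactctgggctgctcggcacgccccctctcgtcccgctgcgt

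The Cdk4 window held 4 copies of CACGTG, which begin 172, 118, 98 and 11 bases before the start. The Cdk6 window held 1 copy, 220 bases before the start, and 1 of the 2 Cdkn2c windows held 1 copy, 34 bases after the start. The annotated Cdk6 gene begins at chr5:3341004, upstream of the Cdk6 window, and the bases before that position were not searched. CACGTG reads the same on both strands and was present in 7.15% of the 32851 mouse windows, and 4 or more copies were present in 8 windows (0.0244%). Of the E2F motifs searched on both strands, TTTCCCGC was found in 1 Cdkn2a window, 99 bases before the start, and in 1.07% of all windows. TTTGGCGC was found in no member window and in 0.514% of all windows. The motifs do not overlap one another, and a match describes letters and not binding.

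Intensities were scaled by the authors so that arrays can be compared, and the trimmed mean of every array was 100. Fold changes are differences of log2(intensity + 16), which understates the change of dim probe sets, and a call is an adjusted p under 0.05 from limma, adjusted over the 34922 probe sets tested. Sets ending in _at without a letter are designed for 1 transcript, whereas _a_at, _s_at and _x_at sets can match several. The wild-type ganglia differed among themselves: summed liver markers (3 of 4 listed genes) ran from 74.1 to 4426, and the ratio of 3′ to 5′ beta-actin signal, a sign of RNA integrity, from 4.36 to 9.14, against 1.96 to 2.69 in hemizygous and 2.44 to 2.81 in homozygous tumors. Whether the samples of 1 group came from separate animals or cultures is not given in the labels, so the p-values speak only of the spread between samples, part of which may be technical. In tissue, fewer cells of a type and less RNA per cell cannot be told apart.

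Cdk4 was the member that moved most in the transgenic tissues. It was higher in hemizygous tumors, Mdk-KO tumors, homozygous tumors and homozygous ganglia than in wild-type ganglia, 10.6-fold, 7.23-fold, 7.53-fold and 4.32-fold by its brightest probe set. Cdk6, the other kinase that pairs with D cyclins, was lower in all 3 kinds of tumor, about 2.3 to 2.5 times. Ccnd1 was about 3-fold higher in the tumors, Ccnd2 was lower in homozygous tumors, and Ccnd3 and Rb1 passed in no comparison.

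The brightest Cdk4 probe set, 1422441_x_at, read 1379.7 and 1470.1 in the tumorspheres and 655 and 920.2 in the neurospheres. In tissue it read 1435, 1600.4, 1865 and 1681 in hemizygous tumors, 1278 and 966 in Mdk-KO tumors, and 1139.8, 1123, 1144 and 1229 in homozygous tumors. Homozygous ganglia gave 763 and 566, and wild-type ganglia 217, 275, 73.1 and 81.6. Every transgenic array lay above every wild-type ganglion, and the 4 wild-type ganglia spread over a wider relative range than any other group. The order of the tissue groups ran from hemizygous tumors, through the other tumors, to homozygous ganglia and wild-type ganglia.

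**Figure D1:**
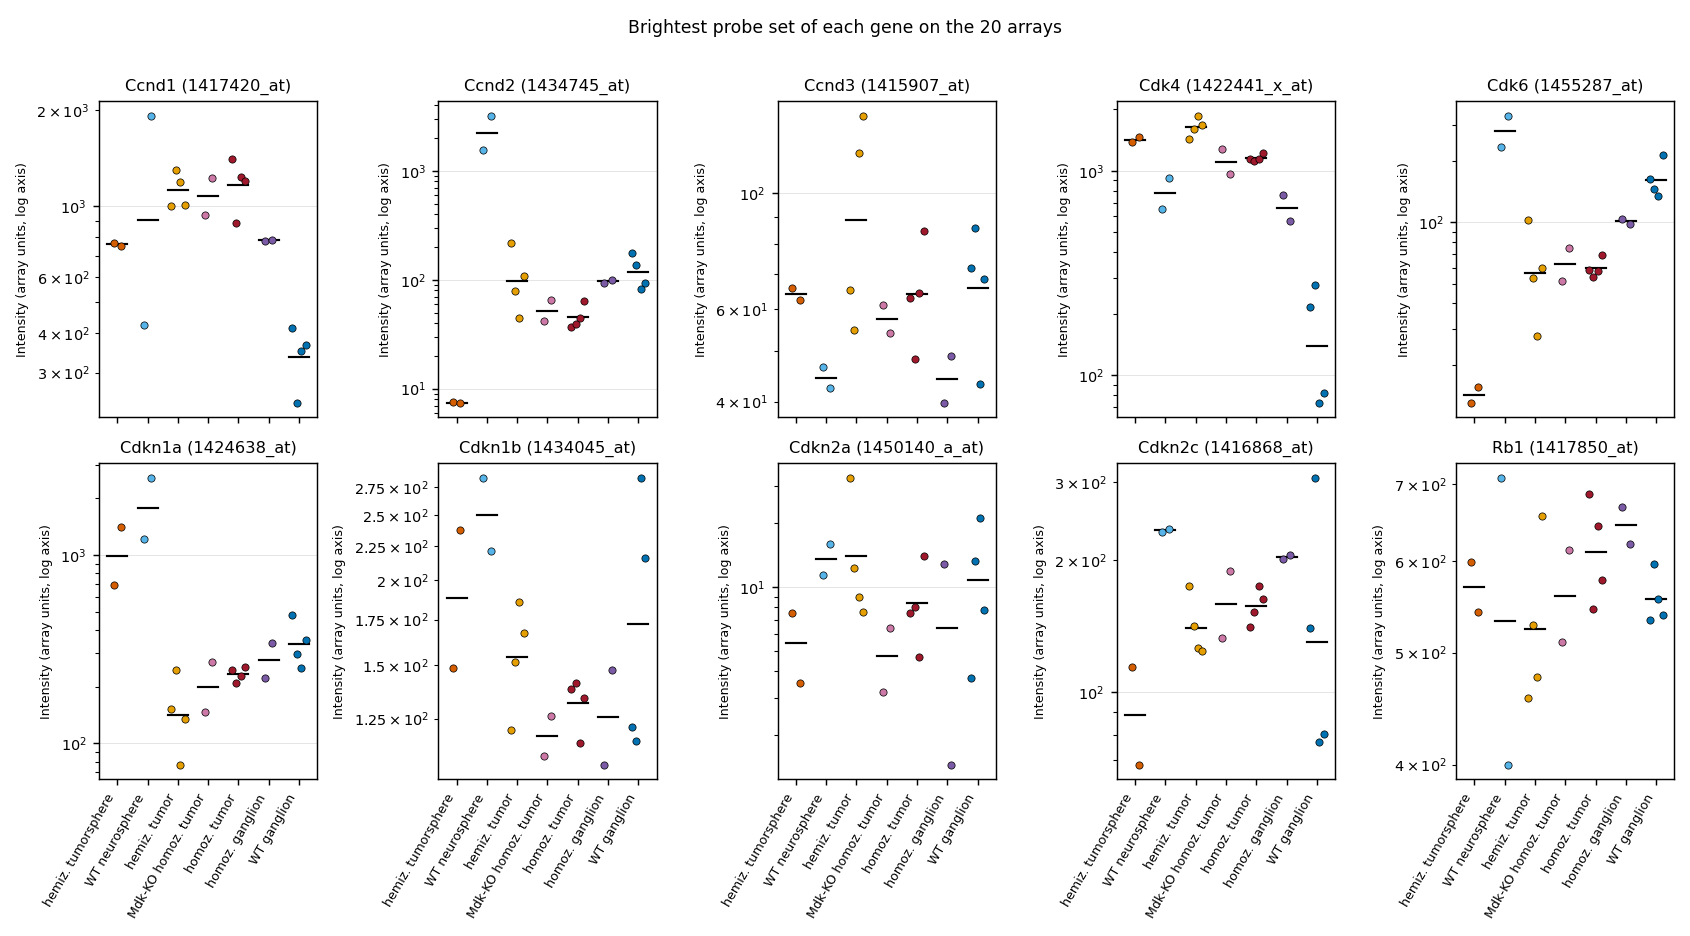
Intensity of the brightest probe set of each of the 10 genes (log axes that differ between panels and do not start at 0) on the 20 arrays. Each point is 1 array, replicates run left to right, and bars are group means taken on log2(intensity + 16); Cdk4 lies between 73.1 and 275 in WT ganglia and between 966 and 1865 in the tumors, and Ccnd2 lies near 7.5 in tumorspheres.

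In log2 units the Cdk4 difference from wild-type ganglia was 3.41 (SE 0.29, adjusted p = 1.8e-08) in hemizygous tumors, 2.85 (SE 0.35, adjusted p = 5.1e-06) in Mdk-KO tumors and 2.91 (SE 0.29, adjusted p = 1.7e-07) in homozygous tumors. The other Cdk4 probe sets gave 3.37 and 3.32 in hemizygous tumors, 2.72 and 2.43 in Mdk-KO tumors, and 2.71 and 2.31 in homozygous tumors. All 3 probe sets passed in all 3 comparisons, also 1422440_at, which is designed for a single transcript. These comparisons share the 4 wild-type ganglia. The calls held in every alternative run, including fits with WT ganglia 1 and 2 or 3 and 4 only.

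In homozygous ganglia, which carry the transgene but are not labelled as tumor, the Cdk4 difference from wild-type ganglia was 2.11 (SE 0.35, adjusted p = 0.001). The other probe sets gave 1.76 and 1.66 and passed as well. Cdk4 thus accounted for all 3 member probe sets called in this comparison, where 4.34% of all tested probe sets were called, 3.48% higher and 0.862% lower. Without homozygous ganglion 1 the brightest set missed the threshold (adjusted p = 0.16), and so did 1422440_at, while 1422439_a_at passed in every alternative.

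Homozygous tumors stood above homozygous ganglia by 0.80 (adjusted p = 0.12) for 1422441_x_at, which did not pass, and by 0.95 (SE 0.23, adjusted p = 0.0071) for 1422439_a_at, which did. The call of 1422439_a_at was lost without homozygous ganglion 2 (adjusted p = 0.18). For 1422439_a_at hemizygous tumors read 1371, 1207, 1535 and 1406, against 788, 771, 954 and 985 in homozygous tumors. Those groups did not overlap, with a log2 difference of 0.65 (SE 0.18, adjusted p = 0.045) and a call lost in 17 of 33 alternatives. Between homozygous tumors and homozygous ganglia 2 of the 24 member probe sets were called, 1 higher and 1 lower, where 18.8% of all tested probe sets were called, 10.5% higher and 8.30% lower. The 6579 calls behind that share became 1165 without homozygous ganglion 2 and 14271 with array weights. Between hemizygous and homozygous tumors 1 of 24 was called, higher, where 5.12% of all were called, 2.47% higher and 2.65% lower.

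Cdk6 had its highest readings in the neurospheres and its lowest in the tumorspheres. Its brightest probe set, 1455287_at, read 13 and 15.6 in tumorspheres and 235 and 335 in neurospheres. It read 103, 53.5, 27.6 and 59.9 in hemizygous tumors, 51.6 and 75.3 in Mdk-KO tumors, and 58.1, 54.2, 57.9 and 69.5 in homozygous tumors. Homozygous ganglia gave 104 and 98 and wild-type ganglia 164, 145, 134 and 216. All tumors lay below all wild-type ganglia, and homozygous ganglia lay between them, apart from hemizygous tumor 1, which read about as high.

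Against wild-type ganglia the Cdk6 difference was -1.30 (SE 0.23, adjusted p = 0.00012) in hemizygous tumors, -1.18 (SE 0.28, adjusted p = 0.003) in Mdk-KO tumors and -1.24 (SE 0.23, adjusted p = 0.00023) in homozygous tumors. In homozygous ganglia it was -0.61 (adjusted p = 0.24) and did not pass. The other tested probe set, 1435338_at, gave -0.65, -0.57 and -0.74 in the tumors and passed in hemizygous and homozygous tumors. With WT ganglia 3 and 4 as the only wild-type ganglia it passed in neither. Its call in hemizygous tumors was lost in 7 of 33 alternatives, some of them leaving out a single array. Without Mdk-KO tumor 1 the Mdk-KO call of 1455287_at was lost (adjusted p = 0.077). Summed Schwann and satellite glia markers (4 of 6 listed genes measured) were also lower in the tumors: 397 to 841 in hemizygous, 645 to 889 in Mdk-KO and 644 to 753 in homozygous tumors. Homozygous ganglia gave 6068 to 6142 and wild-type ganglia 7235 to 9090.1. Summed fibroblast markers (6 of 6) were 2074 to 5875, 2995 to 5028 and 3926 to 4720.5 in these tumors, 13788 to 14958 in homozygous ganglia and 14742 to 17493 in wild-type ganglia, and no marker was at exactly 0 on any array. Sympathetic neuron markers (5 of 6) were lower in these tumors too, at 1845 to 3503, 3664.5 to 4049 and 3259 to 4690 against 8596 to 18634 in wild-type ganglia. So were neural stem markers (4 of 4), at 171 to 207, 251 to 269 and 239 to 252 against 941 to 1454. Macrophage markers (5 of 5) were not lower, at 1597 to 3633, 1759 to 2639 and 1544 to 2355 against 842 to 1962. The part of these cell types in the Cdk6 and Ccnd2 differences was not tested.

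Ccnd1, the D cyclin most often overexpressed in neuroblastoma, was higher in all 3 kinds of tumor. Its brightest probe set, 1417420_at, read 767 and 751 in tumorspheres and 422 and 1926 in neurospheres. It read 1004, 1304, 1195 and 1011 in hemizygous tumors, 938 and 1228 in Mdk-KO tumors, and 1404, 883, 1236 and 1201 in homozygous tumors. Homozygous ganglia gave 779 and 785 and wild-type ganglia 414, 241, 351 and 366. The tumors and homozygous ganglia all lay above the wild-type ganglia, while the neurospheres lay on either side of the tumors.

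The Ccnd1 difference from wild-type ganglia was 1.69 (SE 0.30, adjusted p = 0.00014) in hemizygous, 1.63 (SE 0.37, adjusted p = 0.0022) in Mdk-KO and 1.74 (SE 0.30, adjusted p = 0.00012) in homozygous tumors. In homozygous ganglia it was 1.18 with a 95% confidence interval of 0.40 to 1.96, which missed the threshold after adjustment (adjusted p = 0.083). The other 2 Ccnd1 probe sets gave 1.25 and 1.83 there and did not pass (adjusted p = 0.078 and 0.1). With array weights or without either neurosphere 1417420_at did pass (1.13 to 1.18, adjusted p = 0.0033 to 0.018), and 1448698_at passed in 5 alternatives, so the Ccnd1 calls in homozygous ganglia lay close to the threshold.

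The 3 Ccnd1 probe sets did not give one picture within groups. For 1417419_at the homozygous tumors read 1102, 843, 285 and 252, the hemizygous tumors 350.3, 364, 787 and 826, and the wild-type ganglia 315, 299, 96.9 and 111. Within each of these groups replicates 1 and 2 were apart from replicates 3 and 4, in opposite directions in hemizygous and homozygous tumors. The other sets, 1417420_at and 1448698_at, showed no such separation in the tumors. Correlations between the 3 sets over the 20 arrays were 0.60 to 0.78. The calls of 1417419_at in hemizygous and homozygous tumors were each lost in 6 of 33 alternatives, 4 of them leaving out 1 array, and the call of 1448698_at in hemizygous tumors was lost without WT ganglion 4 and with WT ganglia 1 and 2 as the only wild-type ganglia.

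**Figure D2:**
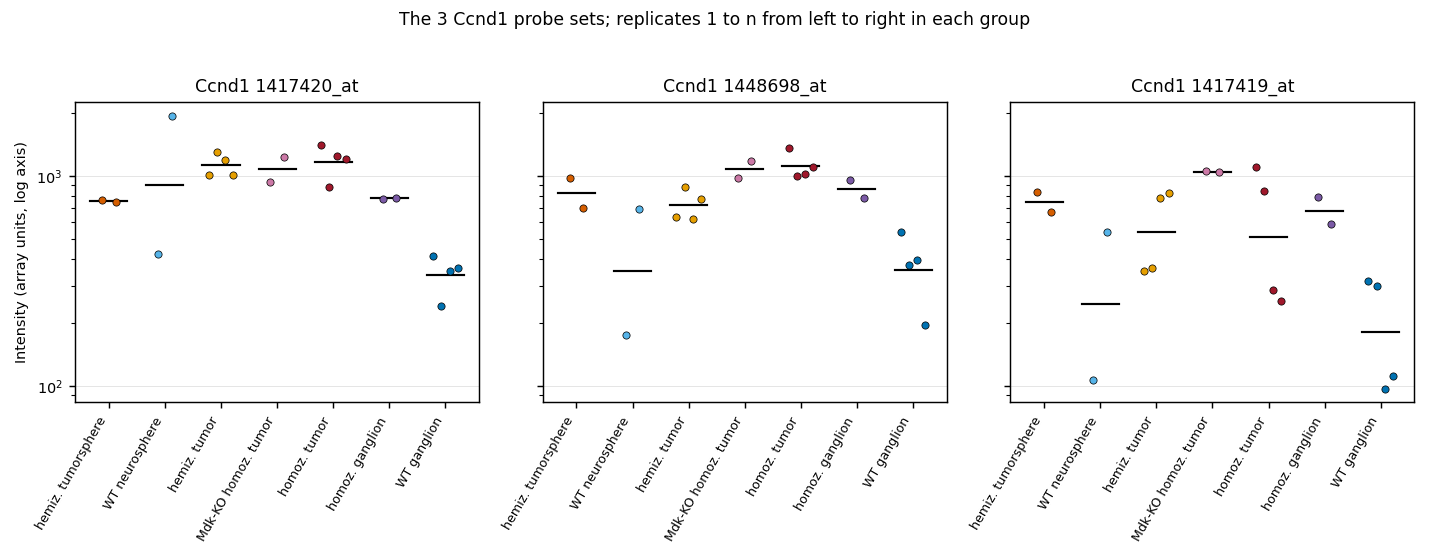
Intensity of the 3 Ccnd1 probe sets (shared log axis that does not start at 0) on the 20 arrays, 1 point per array with replicates from left to right and bars at the group mean taken on log2(intensity + 16). In the panel of 1417419_at the homozygous tumors fall into 1102 and 843 against 285 and 252, a separation that the other 2 panels do not show.

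Ccnd2, a D cyclin used by many neural and blood progenitors, was the member with the widest range. Its brightest probe set, 1434745_at, read 7.53 and 7.38 in tumorspheres and 1568 and 3215 in neurospheres. It read 218, 78.2, 44.2 and 109 in hemizygous tumors, 41.6 and 64.7 in Mdk-KO tumors, and 37.1, 39.1, 44.6 and 64.2 in homozygous tumors. Homozygous ganglia gave 94.1 and 99 and wild-type ganglia 175, 137, 82.4 and 93.6. The homozygous tumors all lay below the wild-type ganglia, and the hemizygous tumors lay across the wild-type range.

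Homozygous tumors were lower than wild-type ganglia by a log2 difference of -1.12 (SE 0.32, adjusted p = 0.0081) at 1434745_at, and 2 of the 7 Ccnd2 probe sets passed, both lower. With WT ganglia 3 and 4 as the only wild-type ganglia the difference at 1434745_at was -0.73 (adjusted p = 0.1) and did not pass. The other set that passed, 1448229_s_at, lost its call in 6 of 33 alternatives, WT ganglia 3 and 4 only among them. Hemizygous tumors differed by -0.23 (adjusted p = 0.58), and none of the 7 probe sets passed. The difference of hemizygous minus homozygous tumors was 0.89 (95% confidence interval 0.21 to 1.56, adjusted p = 0.13), which did not pass.

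Ccnd3, the remaining D cyclin, stayed dim, with 1415907_at between 39.7 and 140.4 on all arrays. Hemizygous tumors read 65.3, 54.7, 119 and 140.4, against 72, 85.8, 43.3 and 68.4 in wild-type ganglia, and the groups overlapped. It passed in none of the 10 pairwise comparisons, and hemizygous tumors minus wild-type ganglia was 0.36 (95% confidence interval -0.12 to 0.84). The other tested set, 1444323_at, reached at most 19.4.

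Rb1, the substrate at the end of the chain, was the steadiest member. Its tested probe set, 1417850_at, read 456, 529, 476 and 657 in hemizygous tumors, 510.3 and 614 in Mdk-KO tumors, 686, 546, 644 and 578 in homozygous tumors, 669 and 621 in homozygous ganglia, and 534, 597, 557 and 539 in wild-type ganglia. Tumorspheres read 599.6 and 542 and neurospheres 709 and 399.7. The 95% confidence interval for hemizygous tumors minus wild-type ganglia was -0.44 to 0.27 and that for homozygous tumors minus wild-type ganglia -0.22 to 0.49, so a change of 1 log2 unit lay outside both. RNA levels say nothing of the phosphorylation of the protein.

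Among the inhibitors, Cdkn1a, which encodes p21 and is a classic p53 target, was the one with large differences. Its brightest probe set, 1424638_at, read 693 and 1412 in tumorspheres and 1219 and 2575 in neurospheres. It read 152, 246, 76.8 and 135 in hemizygous tumors, 147 and 270.1 in Mdk-KO tumors, and 244, 210.0, 227 and 255 in homozygous tumors. Homozygous ganglia gave 222 and 342 and wild-type ganglia 479, 297, 252 and 353. All 4 sphere cultures lay above all 16 tissue samples, and the hemizygous tumors lay below the wild-type ganglia.

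Hemizygous tumors were lower than wild-type ganglia by a log2 difference of -1.16 (SE 0.31, adjusted p = 0.0047) at this Cdkn1a set. Mdk-KO tumors differed by -0.70 (adjusted p = 0.16) and homozygous tumors by -0.50 (adjusted p = 0.2), and neither passed. The dimmer set 1421679_a_at did not pass in any tumor comparison with wild-type ganglia, and those ganglia read 123, 69.5, 5.62 and 11.9 there. With WT ganglia 3 and 4 only, this Cdkn1a set passed as higher in hemizygous (1.27), Mdk-KO (1.59) and homozygous tumors (1.46), opposite in sign to 1424638_at, and with WT ganglia 1 and 2 only it was -0.88, -0.56 and -0.69 and did not pass. Hemizygous minus homozygous tumors was -0.66 (adjusted p = 0.26).

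Cdkn1b, encoding p27, read between 107 and 284 on all arrays at 1434045_at and passed in no comparison. Its dim set 1419497_at was higher in Mdk-KO tumors than in wild-type ganglia, 39.7 and 50.3 against 20.4, 17.4, 15 and 3.74, by 1.05 (SE 0.39, adjusted p = 0.041). That call was lost in 14 of 33 alternatives, and the 2 Cdkn1b sets ran against each other over the 20 arrays (r = -0.34). Cdkn2a, whose locus gives both an INK4 protein and ARF, read 1.44 to 33 on all arrays and passed in no comparison, with the highest reading in hemizygous tumor 1. Cdkn2c, encoding the INK4 protein p18, read 124 to 174 in hemizygous and 141 to 174 in homozygous tumors, against 76.9 to 308 in wild-type ganglia, and passed in no comparison of tissues with all arrays. With WT ganglia 3 and 4 as the only wild-type ganglia, Cdkn2c passed as higher in hemizygous (0.73), Mdk-KO (0.88) and homozygous tumors (0.87) and in homozygous ganglia (1.21). Without WT ganglion 2 alone it passed in Mdk-KO tumors (0.64), homozygous tumors (0.63) and homozygous ganglia (0.97), and with WT ganglia 1 and 2 only the values were -0.52, -0.36, -0.38 and -0.04 and none passed.

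**Figure D3:**
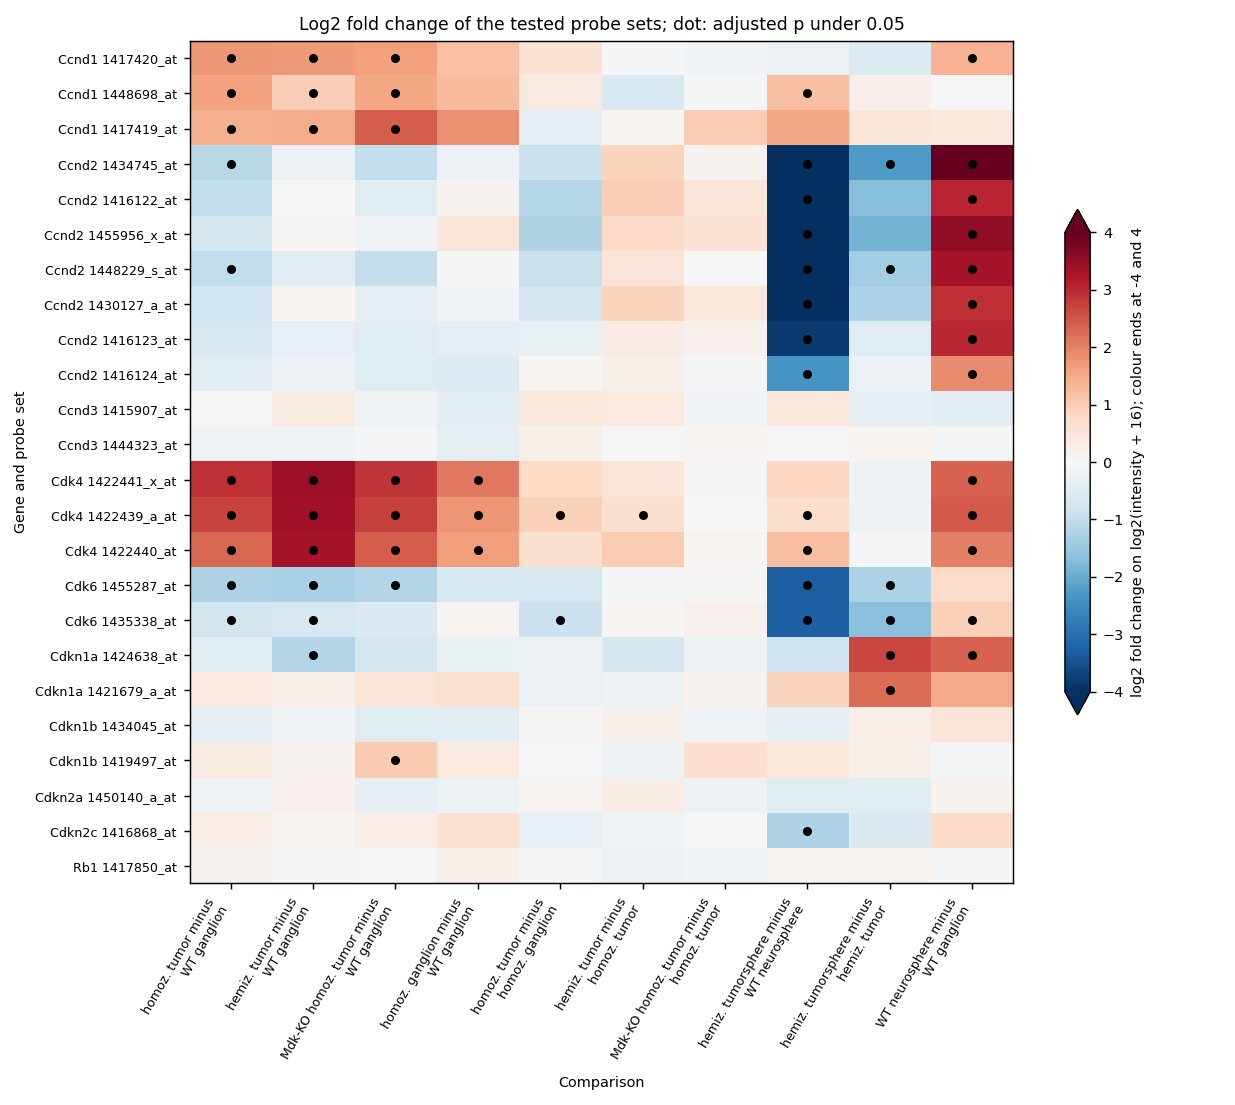
Log2 fold change of each of the 24 tested probe sets (rows) in the 10 pairwise comparisons (columns), as the group named before minus the group named after; dots mark adjusted p under 0.05, and the colour scale ends at -4 and 4. The 3 Cdk4 rows are marked in the 4 columns of transgenic tissue against WT ganglion, and the 7 Ccnd2 rows are marked lower in tumorspheres and higher in neurospheres.

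Counted over the member probe sets, 9 of 24 passed in hemizygous tumors against wild-type ganglia (6 higher and 3 lower), where 47.4% of all tested probe sets passed, 26.8% higher and 20.6% lower. In Mdk-KO tumors it was 8 (7 higher and 1 lower) against 35.4% of all, 20% higher and 15.4% lower. In homozygous tumors it was 10 (6 higher and 4 lower) against 46.7% of all, 25.8% higher and 20.9% lower. These shares of members are near those of all probe sets, so the count itself is not a result about the members. The median log2 difference of the 24 was 0.07, -0.14 and -0.13 in these comparisons, against 0.02, -0.02 and -0.01 over all tested probe sets. Up to 7 probe sets report the same gene, so the 24 are not independent.

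Loss of Mdk, a secreted growth factor, gave no call among the members. None of the 24 probe sets passed between Mdk-KO and homozygous tumors, and none reached an unadjusted p under 0.05, where 771 of all tested probe sets did and 1 passed limma's adjusted threshold (0.00286%, lower; 0 higher). The Cdk4 difference was -0.06 (95% confidence interval -0.79 to 0.68), that of Ccnd1 -0.12 (-0.90 to 0.67) and that of Cdk6 0.05 (-0.54 to 0.65). With 2 Mdk-KO tumors, changes within these intervals cannot be told from none.

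Beyond the members, the genes downstream of them were higher in the tumors. All 13 tested E2F targets were higher than in wild-type ganglia in each kind of tumor, where 26.8% (hemizygous), 19.1% (Mdk-KO) and 23.1% (homozygous) of genes, each by its brightest probe set, were called higher. Their median log2 difference was 3.58 in hemizygous, 3.13 in Mdk-KO and 3.38 in homozygous tumors, against -0.05, -0.11 and -0.12 over all genes. Cdt1, a licensing factor of replication origins, averaged 1780.5 ± 411 in hemizygous tumors and 81.8 ± 51.9 in wild-type ganglia (SD, n = 4 each). Rrm2, a subunit of ribonucleotide reductase, averaged 2428 ± 139.9 in homozygous tumors and 133 ± 68.8 in wild-type ganglia (SD, n = 4 each), a log2 difference of 4.13 (adjusted p = 1.3e-10).

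In homozygous ganglia 11 of the 13 E2F targets were higher than in wild-type ganglia, where 3.98% of genes were called higher. Their median was 2.21, with Rrm2 at 3.69 (adjusted p = 1.6e-07) and Cdt1 at 3.21 (adjusted p = 2.1e-05). Orc1 and Tyms were the 2 that did not pass (0.49 and 0.65). Homozygous tumors exceeded homozygous ganglia in 6 of the 13, where 9.14% of genes were called higher.

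Of 12 pocket protein and E2F factor genes, 9 were higher in hemizygous tumors, 6 in Mdk-KO tumors, 9 in homozygous tumors and 4 in homozygous ganglia than in wild-type ganglia, and none was lower. Of all genes, 26.8%, 19.1%, 23.1% and 3.98% were called higher in these comparisons. E2f8, a repressive family member, was 3.96 higher in hemizygous tumors (adjusted p = 2.6e-10) and 3.58 higher in homozygous tumors (adjusted p = 1.3e-09). Rbl1, encoding the Rb relative p107, was 2.11 and 2.17 higher (adjusted p = 1.3e-08 and 1.2e-08), whereas Rb1 itself passed in no comparison. Against the same shares, 8 of 10 other G1 and S phase genes (cyclins, kinases, Cdc25a and Mnat1) were higher in each kind of tumor. Among them were Ccna2 (3.55 in hemizygous and 3.38 in homozygous tumors) and Cdk1 (3.51 and 3.25). Ccne1, which encodes cyclin E1, the partner of CDK2, was 1.36 higher in hemizygous and 2.29 higher in homozygous tumors.

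Of the 3 other CDK inhibitors, only Cdkn2b passed in a tumor comparison with wild-type ganglia, lower in homozygous tumors (6.59 ± 4.33 against 24.1 ± 7.38, SD, n = 4 each; -0.83, adjusted p = 0.002). Cdkn1c, which encodes p57, averaged 27.9 ± 4.9 in hemizygous tumors and 116 ± 98.3 in wild-type ganglia (SD, n = 4 each), a difference of -1.21 (SE 0.53, adjusted p = 0.067) that did not pass. Of 12 tested p53 targets 1 was higher and 5 were lower in hemizygous tumors, and 2 were higher and 5 lower in homozygous tumors. Mdm2, which encodes the ubiquitin ligase of p53, was the highest in both (1.93 and 1.82, adjusted p = 1.6e-06 and 3.8e-06), whereas Perp (-2.14 and -2.09) and Trp53inp1 (-1.86 and -1) were lower. Of all genes, 25.4% were called lower in hemizygous tumors and 26.6% in homozygous tumors.

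**Figure D4:**
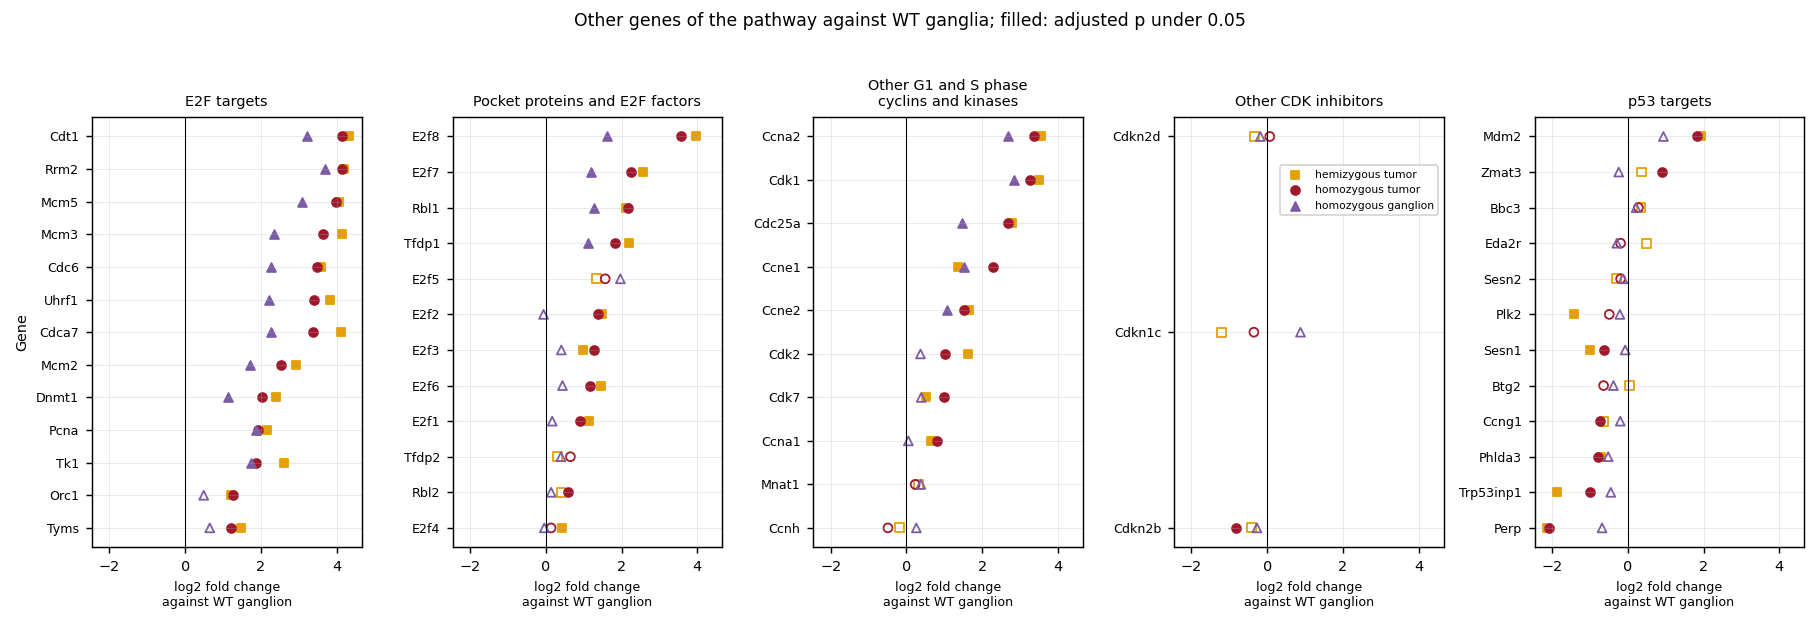
Log2 fold change against WT ganglia (horizontal axis) of the tested genes of 5 pathway lists, each gene by its brightest probe set, in hemizygous tumors (squares), homozygous tumors (circles) and homozygous ganglia (triangles); filled symbols have adjusted p under 0.05. All 13 E2F targets are filled for both kinds of tumor, and 11 for homozygous ganglia.

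Turnover of cyclins and of p27 was followed in 7 tested genes. In hemizygous tumors 4 were higher and 1 lower than in wild-type ganglia, and in homozygous tumors 5 and 1. Of all genes, 26.8% were called higher and 25.4% lower in hemizygous tumors, and 23.1% and 26.6% in homozygous tumors. Skp2, part of the ligase that degrades p27, was 2.88 higher in hemizygous and 2.51 higher in homozygous tumors (adjusted p = 6.8e-09 and 5e-08), and Cks1b, which encodes a cofactor of the Skp2 ligase, was 1.47 and 1.71 higher. Fbxo4, of another ligase, linked to cyclin D1, was lower (-0.73 and -0.71) at dim readings, averaging 23.4 and 24.5 against 51.8 in wild-type ganglia. Ambra1, also linked to the turnover of D cyclins, was higher (1.43 and 1.18). Of 13 genes upstream of Cdkn2a 8 were higher and 1 lower in hemizygous tumors and 7 and 1 in homozygous tumors, where 26.8% and 23.1% of genes were called higher. The largest rises were those of Kdm6b, a demethylase that removes the Polycomb mark (3.74 in hemizygous and 3.22 in homozygous tumors, adjusted p = 7.5e-06 and 4.7e-05), and of Ezh2, the methyltransferase that sets it (3.2 and 2.98, adjusted p = 2.5e-11 and 8.2e-11).

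The largest differences lay between the sphere cultures. Ccnd2 was at the low end of the array in tumorspheres and among the brighter members in neurospheres, Cdk6 was 9.8-fold lower in tumorspheres than in neurospheres, and the neurospheres in turn had 17-fold more Ccnd2 than wild-type ganglia. Cdk4 was higher in tumorspheres by 2 of its 3 probe sets, and Ccnd1 by 1 of 3. Cdkn2c was 2.38-fold lower, and Cdkn1a was high in both cultures. The 2 neurospheres differed in array quality, with 3′ to 5′ ratios of 7.77 and 3.78 for beta-actin and 3.37 and 11.5 for Gapdh. Tumorspheres gave 2.34 to 2.64 and 2.68 to 3.13. Summed liver markers (3 of 4) ran from 11.6 to 7020 in neurospheres and from 14.4 to 16.9 in tumorspheres.

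All 7 Ccnd2 probe sets were lower in tumorspheres than in neurospheres, from -2.35 for the dimmest to -6.59 (SE 0.46, adjusted p = 4.1e-09) for 1434745_at. The dimmest, 1416124_at, was above the 40th percentile on only 3 arrays, both neurospheres among them. It thus passed the filter through the group where it was high and adds no separate support. At 1455956_x_at tumorspheres read 3.89 and 3.97, against 274 and 2398 in neurospheres, and the neurospheres differed from each other several-fold. The tumorsphere readings of 1434745_at, 7.53 and 7.38, were also below the hemizygous tumors, by -2.27 (SE 0.40, adjusted p = 0.001). Readings this low lie at or below the 40th percentile of an array, which was 8.58 to 15.8, so the size of the difference depends on the pseudocount, from -8.05 with a pseudocount of 1 to -5.02 with 64. These calls against neurospheres held in every alternative run.

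Both tested Cdk6 probe sets were lower in tumorspheres than in neurospheres, by -3.29 and -3.26, both with adjusted p = 3.9e-07. Tumorspheres were also below hemizygous tumors, by -1.26 (SE 0.28, adjusted p = 0.0078) at 1455287_at and by -1.66 (SE 0.28, adjusted p = 0.00075) at 1435338_at. The call of 1455287_at against hemizygous tumors was lost without tumorsphere 1 or without tumorsphere 2. Macrophage markers (5 of 5) summed to 47.5 to 92.9 in tumorspheres and 1597 to 3633 in hemizygous tumors, and fibroblast markers to 38 to 43.3 and 2074 to 5875. Summed sympathetic neuron markers (5 of 6) went the other way, 4612 to 5077 against 1845 to 3503. The sum of Schwann and satellite glia markers (4 of 6) did so too, 1044 to 1200.5 against 397 to 841. That glial sum does not hold for each gene. The lowest readings of Fabp7 (0.346), S100b (0.85) and Sox10 (3.15) on any array were in tumorspheres. Pmp22, the remaining glial marker measured, read at least 276 on every array. The part of these cell types in the Cdk6 difference was not tested.

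Cdk4 was higher in tumorspheres than in neurospheres by 0.71 (SE 0.26, adjusted p = 0.044) at 1422439_a_at, which read 1175 and 1195 against 609 and 849.8. At 1422440_at the difference was 1.21 (SE 0.42, adjusted p = 0.035) and at 1422441_x_at 0.86 (SE 0.41, adjusted p = 0.12). The first of these calls was lost in 16 of 33 alternatives and the other in 8. Between tumorspheres and hemizygous tumors Cdk4 differed by -0.20 (95% confidence interval -0.94 to 0.54), which did not pass.

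Ccnd1 gave no common direction between the cultures. At 1417420_at neurosphere 2 read 1926 and neurosphere 1 read 422, and tumorspheres minus neurospheres was -0.25 (95% confidence interval -1.16 to 0.65). At 1448698_at the difference was 1.2 (SE 0.45, adjusted p = 0.048), a call lost in 22 of 33 alternatives. Neurospheres against wild-type ganglia passed at 1417420_at only (1.39, adjusted p = 0.0071), and without neurosphere 2 the value was 0.31 (adjusted p = 0.45).

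Among the inhibitors, Cdkn1a was higher in tumorspheres than in hemizygous tumors by 2.67 (SE 0.38, adjusted p = 0.00015) and higher in neurospheres than in wild-type ganglia by 2.35 (SE 0.38, adjusted p = 8.9e-05). Tumorspheres minus neurospheres was -0.83 (95% confidence interval -1.75 to 0.09, adjusted p = 0.17). Cdkn2c read 114 and 68.3 in tumorspheres and 232 and 235 in neurospheres, a difference of -1.25 (SE 0.40, adjusted p = 0.022) that was lost without tumorsphere 2 and without either neurosphere. Of the other inhibitors, Cdkn2b, which encodes the INK4 protein p15, averaged 5.81 ± 4.24 in tumorspheres and 289.9 ± 111 in neurospheres (SD, n = 2 each), a difference of -3.77 (adjusted p = 9.7e-09). Cdkn2d, encoding the INK4 protein p19, went the other way, 258 ± 5.41 against 87.1 ± 28.7 (1.44, adjusted p = 8.4e-05).

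In counts, 13 of 24 member probe sets passed between tumorspheres and neurospheres (3 higher and 10 lower), where 32.2% of all tested sets passed, 18.2% higher and 14% lower, and 7 of the 10 lower ones report Ccnd2. Of those 7, 1416124_at passed the filter through the neurospheres, so its calls here and against wild-type ganglia add no separate support. Between neurospheres and wild-type ganglia 13 passed, all higher, where 34.4% of all passed, 17.7% higher and 16.8% lower, and between tumorspheres and hemizygous tumors 6 passed (2 higher and 4 lower), where 9.23% of all passed, 3.95% higher and 5.28% lower. The cultures also differed in cell type markers: sympathetic neuron markers (5 of 6) summed to 4612 to 5077 in tumorspheres and 49.2 to 54.1 in neurospheres, and neural stem markers (4 of 4) to 157 to 159 and 3869.6 to 4659. The defining sympathetic markers Th and Slc6a2 were near the floor in neurospheres, where Slc6a2 was as low as 1.07. The part of cell type in the sphere differences was not tested.

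Whether the difference from wild type was the same in culture and in tissue was tested as 1 contrast, tumorspheres minus neurospheres less hemizygous tumors minus wild-type ganglia. Of 24 member probe sets 14 passed, all with a negative value, where 28.7% of all tested sets passed (13.2% with a positive and 15.4% with a negative value). They include Ccnd2 1416124_at, which passed the filter through the neurospheres. For Cdk4 the value was -2.55 (SE 0.50, adjusted p = 0.00075), and neurospheres read 655 and 920.2 whereas wild-type ganglia read 73.1 to 275. For Ccnd2 it was -6.36 (SE 0.56, adjusted p = 1.5e-07) and for Cdk6 -1.99 (SE 0.40, adjusted p = 0.00099). Cdkn1a gave 0.33 (95% confidence interval -0.80 to 1.46), and Rb1 0.18 (-0.44 to 0.79).

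**Figure D5:**
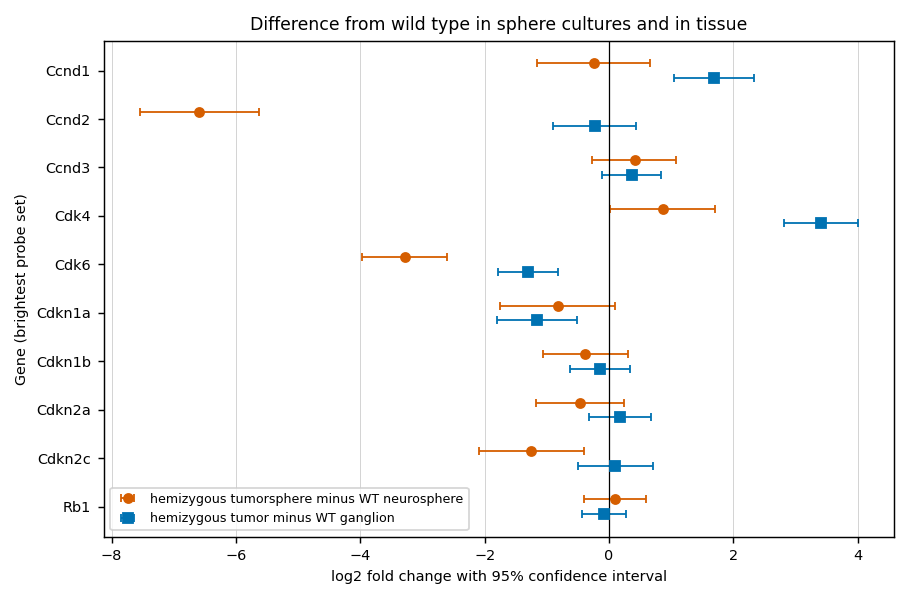
Log2 fold change with its 95% confidence interval (limma) for the brightest probe set of each gene, for hemizygous tumorspheres minus WT neurospheres (circles) and hemizygous tumors minus WT ganglia (squares). Cdk4 stands at 0.86 in culture and 3.41 in tissue, and Ccnd2 at -6.59 in culture and -0.23 in tissue.

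Over the 20 arrays the genes with the pattern most like that of each member, among 14154 named genes by Pearson correlation of log2(intensity + 16), were as follows. For Cdk4 they were Prc1 (0.991), Gins2 (0.984) and Lonrf3 (0.980), and for Cdk6 Klf3 (0.971), Lamp1 (0.960) and Rhbdf1 (0.959). For Ccnd1 they were Itfg2 (0.917), Zfp61 (0.914) and Polr1a (0.911), and for Ccnd2 Tnc and Rab31 (both 0.957) and Prr5l (0.952). Cdkn1a was closest to Sesn2 (0.918), Enc1 (0.905) and Mtss1 (0.862). The nearest gene to Rb1 reached 0.728 and to Cdkn2a 0.685. The arrays share groups and wild-type samples, so these values describe the ranking and carry no test.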

How the data were processed

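The files hold 1 linear intensity per probe set and array, as deposited by the authors; per the labels' protocols, 40 ng of total RNA went through 2 cycles of cDNA synthesis and 3′ labelling. No header or label names the summarization software; the trimmed mean of 100 on each array was found from the values. Probe sets were named from the platform's annotation: 34945 had 1 symbol, 932 several and 9160 none; 64 control probe sets were left out. log2(intensity + 16) was fitted with limma 3.58.1 in R 4.3.3, as 1 model of 7 group means over 20 arrays with 13 residual degrees of freedom. P-values come from limma's moderated test, two-sided, with Benjamini-Hochberg adjustment over 34922 probe sets. Every member probe set was reported, and the brightest stands for the gene; list genes were named as up to 4 per list and comparison, those with the largest changes in each direction. Rbl1, Ccne1, Orc1, Tyms and Ambra1 fall outside this rule and were chosen after their values were seen. The members and lists were chosen with earlier results of these data known. Deviations from the group mean correlated at -0.32 to 0.28 (median 0.02) between same-numbered samples of different groups, so the numbers were not used as pairs. On simulated data, the fit recovered 55% of 2-fold and 94% of 4-fold changes for homozygous tumors against wild-type ganglia, and 21% and 79% for tumorspheres against neurospheres. The simulation changed 200 of 34922 probe sets and gave each set the same spread in all groups. In the data 46.7% and 32.2% of sets were called in these comparisons, so the recovered shares do not give the power of the reported tests. The number of arrays limits the precision. Alternatives covered scaling, pseudocount, filter, array weights, prior, replicate number, subsets of WT ganglia and leaving out each array.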

Additional observations from a re-analysis of the deposited data

Results flagged for a closer look

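The difference from wild type was not the same in culture and in tissue for 14 member probe sets, as tested by tumorspheres minus neurospheres less hemizygous tumors minus wild-type ganglia in limma. For Ccnd2 all 7 probe sets passed, with -6.36 at 1434745_at, -4.75 at 1416122_at, -5.45 at 1455956_x_at, -4.68 at 1448229_s_at, -4.14 at 1430127_a_at, -3.5 at 1416123_at and -2.12 at 1416124_at. The last of these sets passed the filter through the neurospheres and adds no separate support. For Cdk4 all 3 passed, with -2.55 at 1422441_x_at, -2.66 at 1422439_a_at and -2.11 at 1422440_at. For Cdk6 both tested sets passed, with -1.99 at 1455287_at and -2.6 at 1435338_at. Ccnd1 passed at 1417420_at with -1.94 (adjusted p = 0.0093 by limma), and without neurosphere 2 the call was lost (adjusted p = 0.084). Cdkn2c passed with -1.35 (adjusted p = 0.047 by limma), a call lost in 25 of 34 alternatives. Neurospheres and wild-type ganglia, the wild-type sides of this contrast, differ in cell type markers, and the part of that in these values was not tested.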

How the results depend on the processing

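Of 264 member results, 79 passed, and none of the 79 changed sign under the 34 alternatives. Of the 185 that did not pass, 82 changed sign in at least 1 alternative, 40 of them with WT ganglia 1 and 2 only or 3 and 4 only. For Ccnd2 1455956_x_at in homozygous against wild-type ganglia these subsets gave -0.7 and 1.69 (0.49 with all). Counts of called member probe sets moved as follows. With 1 probe set per gene, which leaves 10 to test, they were 4 in hemizygous, 3 in Mdk-KO and 4 in homozygous tumors and 1 in homozygous ganglia against wild-type ganglia, 0 between homozygous tumors and ganglia, 0 between hemizygous and homozygous tumors, 3 between tumorspheres and neurospheres, 3 between tumorspheres and hemizygous tumors, 4 between neurospheres and wild-type ganglia and 5 for culture against tissue. For homozygous against wild-type ganglia (3 as reported), only the compared arrays gave 1, array weights 5 and WT ganglia 3 and 4 only 10. For homozygous tumors against homozygous ganglia (2), median centring, pseudocount 1, the replicate block and a term for replicates 1 and 2 against 3 and 4 gave 1 each, only the compared arrays 11 and array weights 10. For hemizygous against homozygous tumors (1), median centring, pseudocount 1, the trended and robust prior and the replicate block gave 0, quantile normalization, pseudocount 64 and WT ganglia 1 and 2 only gave 2, WT ganglia 3 and 4 only gave 3, and only the compared arrays and array weights gave 5. For tumorspheres against hemizygous tumors (6), array weights gave 11. The cause of these moves was not tested.

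Leaving out 1 array gave 8 to 14 for homozygous, 7 to 10 for hemizygous and 6 to 10 for Mdk-KO tumors against wild-type ganglia, and 1 (without homozygous ganglion 1) to 6 (without WT ganglion 2) for homozygous ganglia. It gave 0 (without homozygous ganglion 2) to 2 for homozygous tumors against ganglia, 0 to 3 for hemizygous against homozygous tumors, 0 to 0 for Mdk-KO against homozygous tumors, 9 to 14 for tumorspheres against neurospheres, 3 (without tumorsphere 1) to 9 against hemizygous tumors, 10 to 15 for neurospheres against wild-type ganglia and 12 to 14 for culture against tissue. A group left with 1 array was assumed to vary like the others. Same-numbered samples did not deviate together, and the replicate block lost 8 of the 79 calls and added 3; those lost were Cdk4 1422440_at in homozygous ganglia, Cdkn1b 1419497_at in Mdk-KO tumors, Cdk6 1435338_at in homozygous tumors against homozygous ganglia, Cdk4 1422439_a_at between the tumor genotypes, Cdk4 1422439_a_at and 1422440_at and Ccnd1 1448698_at between the cultures, and Cdkn1a 1421679_a_at in tumorspheres against hemizygous tumors. Over all probe sets, the 1517 calls for homozygous ganglia became 278 with only the compared arrays, 849 with the replicate block and 10086 with WT ganglia 3 and 4 only.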

Other observations

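Within the wild-type ganglia, replicates 1 and 2 were apart from replicates 3 and 4 by over 1 log2 unit, without overlap, for 7 of 24 member probe sets and 14.2% of all 34922. The differences, replicates 1 and 2 minus 3 and 4, were 1.93 and 2.39 for Ccnd2 1416122_at and 1455956_x_at, 2.15 for Cdkn1a 1421679_a_at, 1.48 and 1.2 for Cdk4 1422441_x_at and 1422440_at, 1.43 for Ccnd1 1417419_at and 1.25 for Cdkn2c. Ttr, a liver and choroid plexus transcript, read 2261, 712, 77.6 and 55.3 in these 4 ganglia. In homozygous tumors 2 member probe sets were so separated (1.17% of all): Ccnd1 1417419_at by 1.79 and Cdkn1b 1419497_at by 1.33. In hemizygous tumors 2 were (2.41% of all): Ccnd1 1417419_at by -1.14 and Ccnd2 1448229_s_at by 1.01.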
